A study of Homo sapiens with 11 samples.

Results

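The genes described here encode serum response factor (SRF), its coactivator myocardin (MYOCD) and 8 contractile proteins that this pair is known for: the actins ACTA2, ACTG2 and ACTC1, and TAGLN, CNN1, MYL9, LMOD1 and MYOZ2. They were chosen by gene symbol, and all 10 were among the 60605 features of the deposited table. Polyadenylated RNA was sequenced from ARPE-19, a human cell line that derives from the pigmented epithelium of the retina. Stable derivatives expressed an introduced open reading frame for 4 days. The frame coded for GFP, a fluorescent protein used as the control (3 libraries), for Oct4, Sox2 or Klf4 alone (2 libraries each), or for all of Oct4, Sox2 and Klf4 (OSK, 2 libraries). The library names of all factor lines carry the tag mC, and those of GFP do not. In comparisons with GFP, whatever mC marks cannot be told apart from the factors. The labels name no promoter for the introduced frames, do not say whether a line is 1 clone, and do not say whether replicates are separate cultures, so p-values measure the spread between these libraries, which may be technical.

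SRF binds DNA at CArG boxes, a short element with an A- and T-rich core, and its partners decide which genes it drives. Myocardin and the related factors MRTFA and MRTFB direct it to contractile and cytoskeletal genes, the latter pair in response to the state of the actin cytoskeleton. The ETS-domain partners ELK1, ELK3 and ELK4 direct it to growth-induced early genes. Klf4 is known in smooth muscle as a repressor of the myocardin-driven program. Epithelial cells, those of the retinal pigment epithelium included, are known to gain contractile proteins such as ACTA2 and TAGLN when they take on mesenchymal features.

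Promoter sequence is shown for the 4 members whose RefSeq promoter windows held a CArG box, because that element is where SRF binds. Windows ran from 250 bases before to 50 bases after a transcription start, and 7 of the 10 members had at least 1 window (11 windows in all, GRCh38.p14). TAGLN, MYL9 and MYOCD had no entry. The 250 bases before the start are printed 5′ to 3′ on the gene's strand, with CArG boxes in capitals.
SRF, chr6:43171019-43171268, plus strand: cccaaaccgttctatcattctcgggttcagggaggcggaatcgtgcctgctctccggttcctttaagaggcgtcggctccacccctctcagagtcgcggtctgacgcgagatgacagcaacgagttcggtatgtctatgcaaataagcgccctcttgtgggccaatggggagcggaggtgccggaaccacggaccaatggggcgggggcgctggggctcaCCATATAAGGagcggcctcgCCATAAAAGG
ACTA2, chr10:88952774-88953023, minus strand: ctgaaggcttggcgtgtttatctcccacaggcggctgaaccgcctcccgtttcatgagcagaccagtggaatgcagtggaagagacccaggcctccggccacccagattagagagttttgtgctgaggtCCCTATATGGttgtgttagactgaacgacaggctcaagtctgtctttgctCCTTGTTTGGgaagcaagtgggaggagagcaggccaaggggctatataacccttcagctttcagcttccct
ACTG2, chr2:73892758-73893007, plus strand: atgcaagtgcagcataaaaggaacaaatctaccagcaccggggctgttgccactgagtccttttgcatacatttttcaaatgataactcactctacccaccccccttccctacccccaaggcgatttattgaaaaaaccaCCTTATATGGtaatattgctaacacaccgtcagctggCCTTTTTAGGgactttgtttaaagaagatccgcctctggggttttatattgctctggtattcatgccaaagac
ACTC1, chr15:34795550-34795799, minus strand: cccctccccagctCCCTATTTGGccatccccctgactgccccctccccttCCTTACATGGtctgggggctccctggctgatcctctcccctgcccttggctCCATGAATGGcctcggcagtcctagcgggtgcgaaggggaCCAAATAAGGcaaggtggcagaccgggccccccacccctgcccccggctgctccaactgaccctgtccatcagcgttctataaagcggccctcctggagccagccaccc

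The SRF window held 2 exact CArG boxes, at 30 and 10 bases before the start (first base of each). That of ACTG2 held 2 exact boxes, at 110 and 73 bases before the start. ACTC1 had 1 exact box at 109 bases and 3 boxes with 1 mismatch in the core further upstream, at 237, 200 and 149 bases. The ACTA2 window at its downstream start held 2 boxes, at 121 and 71 bases, each with 1 mismatch, and the window at its upstream start held none. No match was found in the windows of CNN1, LMOD1 and MYOZ2, which says only that these letters were not there. Of 35116 RefSeq windows of the same length, 1.29% held an exact CArG box and 8.13% held one with at most 1 mismatch. The motif CACCC, a core shared by sites of Krüppel-like factors, was found on either strand in windows of 4 members (SRF, ACTA2, ACTG2 and ACTC1). It was in 59.9% of all windows, and no such match overlapped a CArG box. The map of promoter windows gives these positions, which are matches of letters and not measured binding.

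**Figure D1:**
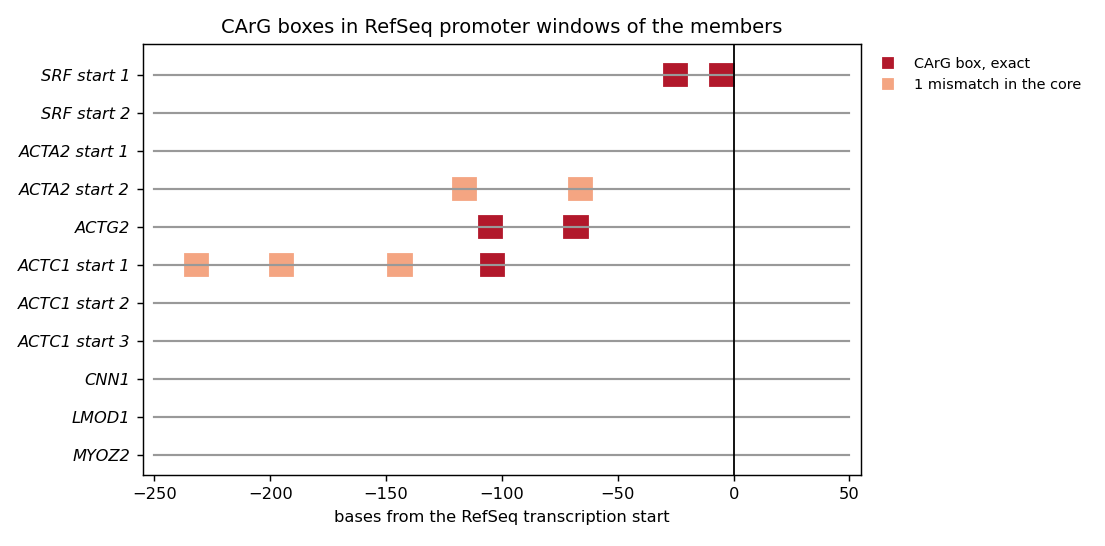
CArG boxes (coloured blocks; dark for exact, pale for 1 mismatch in the core) in each RefSeq promoter window of the members, by distance in bases from the transcription start (vertical line). Boxes lay upstream of 1 start each of SRF, ACTA2, ACTG2 and ACTC1, and no window of CNN1, LMOD1 or MYOZ2 held one.

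Levels are given as normalised counts, that is, reads per gene after division by a factor that the authors set for each library. Libraries held 15053300 to 19791775 recovered reads. GFP replicate 1 and OSK replicate 1 stood apart from the rest, with 42956 and 32493 features detected against 25853 to 26971 in the other 9 libraries. Of 405 olfactory receptor genes, 67.7% and 23.0% were detected in these 2 libraries, against 4.94% to 8.15% in the other 9. The cause was not tested. GFP replicate 1 also had the lowest GFP value of SRF, MYOCD, ACTA2, ACTC1, TAGLN, MYL9, LMOD1 and MYOZ2, and the highest of CNN1 and ACTG2, so counts are also given without it. POU5F1 (the gene of Oct4), SOX2 and KLF4 were each at 17582 normalised counts or more in the libraries labelled for them and at 446 or less elsewhere. Differences were tested with limma on log2(value + 1) over the 18828 genes that reached 10 normalised counts in 2 or more libraries, with Benjamini-Hochberg adjustment over all of them, and a gene is said to have risen or fallen when its adjusted p was under 0.05. All 10 members passed that filter, CNN1 and ACTG2 by 3 and 2 libraries. The 4 comparisons with GFP share the same control libraries.

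The direction of change differed between the lines. In the Oct4 line 6 of 10 members rose (SRF, ACTA2, ACTC1, TAGLN, MYL9 and LMOD1) and 1 fell (MYOZ2), where 37.3% of all genes tested changed (20.1% rose and 17.2% fell). In the Sox2 line 4 rose (SRF, ACTA2, TAGLN and LMOD1) and 3 fell (MYOCD, ACTC1 and MYOZ2), against 21.7% and 19.9% of all genes (41.6% in all). In the Klf4 line none rose and 6 fell (MYOCD, ACTA2, ACTC1, TAGLN, MYL9 and MYOZ2), against 17.6% and 16% of all genes (33.5% in all). In OSK 6 fell (MYOCD, ACTA2, ACTC1, TAGLN, MYL9 and MYOZ2) and SRF rose, against 20% and 19.7% of all genes (39.7% in all). The median log2 change of the members was 1.17 with Oct4, -0.24 with Sox2, -1.29 with Klf4 and -1.70 with OSK, where that of all genes tested was -0.02, -0.02, -0.02 and -0.01. Without GFP replicate 1 the counts were 6 risen and 1 fallen with Oct4, 4 and 3 with Sox2, 0 and 7 with Klf4, and 0 and 7 with OSK, and the Sox2 median was 0.13. ACTG2 did not pass the filter without that library, which left 9 members. That fit tested 18235 genes, and the shares of all of them that rose and fell were not counted. In bulk RNA, fewer cells that express a gene and less of its RNA per cell cannot be told apart.

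**Figure D2:**
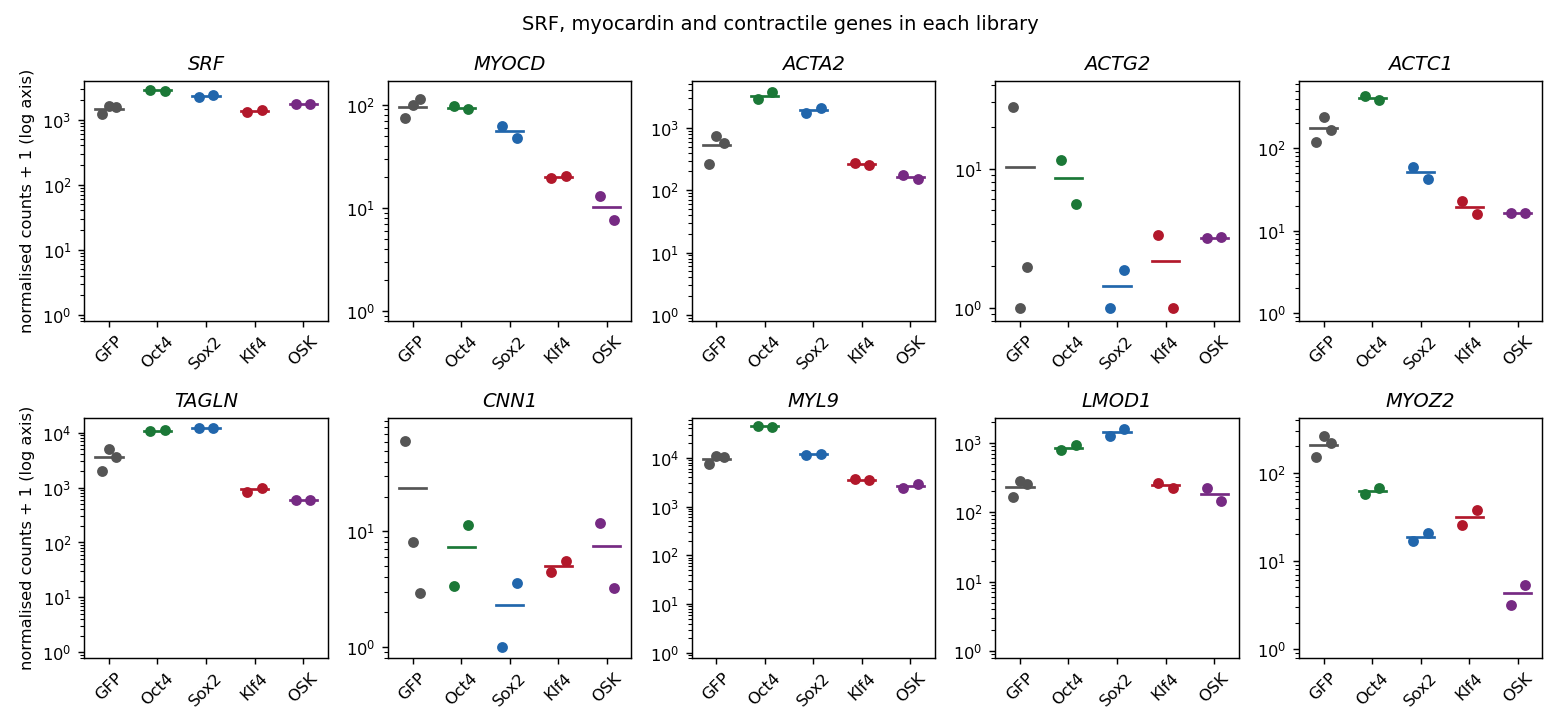
Normalised counts plus 1 (log axis) of each member in each library (points) with the group mean (bars), for 3 GFP libraries and 2 libraries of every other line. ACTA2, TAGLN and MYL9 were high in the Oct4 libraries and low in the Klf4 and OSK libraries, whereas MYOZ2 was highest in GFP.

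The regulators were examined first. SRF, the DNA-binding factor itself, had 1220.4, 1599 and 1554 normalised counts in the 3 GFP libraries, 2881 and 2726 with Oct4, 2196 and 2385 with Sox2, 1328 and 1416 with Klf4, and 1733 and 1715 with OSK. The Oct4 and Sox2 libraries thus lay above every GFP library, while the Klf4 libraries lay within the GFP range. SRF rose by 0.95 on the log2 scale with Oct4 (SE 0.10; limma adjusted p = 1.02e-06) and by 0.66 with Sox2 (SE 0.10; limma adjusted p = 3.87e-05). Its log2 change with Klf4 was -0.08 (95% interval -0.28 to 0.13; limma adjusted p = 0.579). Without GFP replicate 1 that change was -0.20 and passed (limma adjusted p = 0.0254). In OSK the rise of 0.25 (SE 0.10; limma adjusted p = 0.0488) was lost with edgeR, with DESeq2, with no filter, when the fit held GFP and OSK alone, and without GFP replicate 1, OSK replicate 1 or OSK replicate 2, where it ranged from 0.13 to 0.26 (adjusted p 0.0667 to 0.176). Without GFP replicate 1 and OSK replicate 1 together it was 0.12 (limma adjusted p = 0.303).

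MYOCD, the coactivator that is itself restricted to heart and smooth muscle in the body, was low in all libraries. It had 72.5, 97.1 and 113 normalised counts in GFP, 95.2 and 89.3 with Oct4, 61.7 and 46.2 with Sox2, 18.5 and 19.4 with Klf4, and 11.9 and 6.60 with OSK. The Klf4 and OSK libraries lay below all others, and the Oct4 libraries lay within the GFP range. MYOCD fell by 2.23 on the log2 scale with Klf4, to 20.1% of the GFP mean (SE 0.30; limma adjusted p = 2.34e-05). In OSK the mean was 9.84% of GFP (-3.24, SE 0.30; limma adjusted p = 2.92e-07). With Oct4 the log2 change was -0.01 (95% interval -0.64 to 0.62; limma adjusted p = 0.99). The fall with Sox2 (-0.78, SE 0.30; limma adjusted p = 0.0448) was lost with DESeq2, with no filter, with the replicate number as a block, and without GFP replicate 2 or 3 or Sox2 replicate 1 or 2 (adjusted p 0.0501 to 0.28). The OSK values rested on 11 and 6 reads.

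The partners that SRF works with moved differently from one another. MRTFA, the actin-sensing coactivator, had 1234, 1295 and 1254 normalised counts in GFP, 3568 and 3223 with Oct4, 2009 and 1873 with Sox2, 1505 and 1663 with Klf4, and 1728 and 1762 with OSK. Every library of the 4 factor lines was above the GFP libraries, and the Oct4 libraries were highest. MRTFA rose by 1.43 on the log2 scale with Oct4 (SE 0.07; limma adjusted p = 3.29e-10), 0.62 with Sox2 (SE 0.07; limma adjusted p = 2.92e-06), 0.33 with Klf4 (SE 0.07; limma adjusted p = 0.00201) and 0.47 with OSK (SE 0.07; limma adjusted p = 6.25e-05). Its relative MRTFB fell with Oct4 (-0.27), Klf4 (-0.45) and OSK (-0.38; largest limma adjusted p = 0.0226). ELK4, an ETS-domain partner, had 2693 and 2795 normalised counts in the Sox2 line against 906 to 941 in GFP, a rise of 1.58 (SE 0.07; limma adjusted p = 1.28e-10). ELK3 rose with Oct4 (0.62) and Sox2 (0.65) and fell with Klf4 (-0.40) and OSK (-0.65; largest limma adjusted p = 0.00618).

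Among the 3 actin genes, ACTA2 (smooth muscle alpha actin, the usual marker of contractile fibroblasts and smooth muscle) changed most with Oct4. Its normalised counts were 266, 752 and 567 in GFP, 2902 and 3703 with Oct4, 1753 and 2105.5 with Sox2, 268 and 250.2 with Klf4, and 176 and 153 with OSK. The Oct4 and Sox2 libraries stood above all GFP libraries and the OSK libraries below them, but the Klf4 libraries overlapped GFP replicate 1. The mean rose 6.25-fold with Oct4 (log2 change 2.76, SE 0.28; limma adjusted p = 9.84e-07) and 3.65-fold with Sox2 (1.99, SE 0.28; limma adjusted p = 2.52e-05). It fell to 31.1% of GFP in OSK (-1.56, SE 0.28; limma adjusted p = 2.89e-04). The fall with Klf4 was -0.90 (SE 0.28; limma adjusted p = 0.0203), and was -1.33 without GFP replicate 1 (limma adjusted p = 3.91e-07). That call was lost with no filter, with only the compared groups, and without GFP replicate 2 or 3 or Klf4 replicate 1 or 2, where the change ranged from -0.95 to -0.58 (limma adjusted p 0.0725 to 0.11). Exons of ACTA2 share 380 bases with FAS and 516 with ACTA2-AS1 on the opposite strand, and the use of strand in counting is not given in the sources used here. FAS had 130 to 161 normalised counts in GFP and 666 and 511 in the Klf4 line, and ACTA2-AS1 had 19.7 and 18.3 in the Oct4 line and at most 6.86 elsewhere.

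ACTC1, the alpha actin of heart muscle, differed from ACTA2 in the Sox2 line. It had 118, 236 and 165 normalised counts in GFP, 425 and 385 with Oct4, 58.3 and 41.1 with Sox2, 22.0 and 14.85 with Klf4, and 15.2 and 15.4 with OSK. No library of any factor line overlapped the GFP range: the Oct4 libraries were above it and those of the other 3 lines below. ACTC1 rose by 1.28 with Oct4 (log2, SE 0.27; limma adjusted p = 0.00163) and fell with Sox2 (-1.74; limma adjusted p = 8.27e-05), Klf4 (-3.13; limma adjusted p = 2.84e-07) and OSK (-3.36; SE 0.27 each, limma adjusted p = 7.97e-08). In the Klf4 line the ACTC1 mean was 10.6% of GFP and in OSK 8.84%.

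ACTG2, the gamma actin of visceral smooth muscle, was near the limit of detection. It had 26.8 normalised counts in GFP replicate 1 and 0 and 0.97 in the other GFP libraries, 10.45 and 4.58 with Oct4, 0 and 0.86 with Sox2, 2.31 and 0 with Klf4, and 2.17 and 2.20 with OSK. The Sox2, Klf4 and OSK libraries held at most 2 reads each, and no comparison of ACTG2 passed (lowest limma adjusted p = 0.175, Sox2 against Oct4, which passed at 0.0245 when the fit held those groups alone). With so few reads, a change of ACTG2 was otherwise not detectable at this depth. Coding sequences of the actin genes are nearly alike, so reads of one member can be counted for another or left out.

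Set per kilobase of exon, the muscle actins were a small part of the actin RNA. ACTB and ACTG1, the cytoplasmic actins, had 11205 and 17147 normalised counts per kilobase in GFP, against 177 for ACTA2, 37.6 for ACTC1 and 2.43 for ACTG2. ACTA2 made up 0.602% ± 0.222 of the summed level of 6 actin genes in GFP (SD, n = 3), 2.20% ± 0.425 with Oct4, 1.41% ± 0.0587 with Sox2, 0.341% ± 0.0153 with Klf4 and 0.253% ± 0.0200 with OSK (n = 2 each). The ACTA2 share in the Oct4 and Sox2 libraries was above that in every GFP library, and that in the Klf4 and OSK libraries was below.

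TAGLN, an actin-binding protein and early marker of the smooth muscle program, had 1999, 5105 and 3551 normalised counts in GFP. It had 10657 and 10954 with Oct4, 12300.1 and 12135 with Sox2, 844 and 996 with Klf4, and 594 in each OSK library. The groups other than GFP were tight, the Oct4 and Sox2 libraries lay above all GFP libraries, and the Klf4 and OSK libraries lay below them. TAGLN rose 3.04-fold with Oct4 (log2 change 1.71, SE 0.24; limma adjusted p = 2.91e-05) and 3.44-fold with Sox2 (1.88, SE 0.24; limma adjusted p = 7.88e-06). It fell to 25.9% of GFP with Klf4 (-1.85, SE 0.24; limma adjusted p = 1.56e-05) and 16.7% with OSK (-2.48, SE 0.24; limma adjusted p = 4.73e-07). Of TAGLN and its relative TAGLN2 per kilobase, TAGLN made up 16.4% ± 4.41 in GFP (SD, n = 3), 37.8% ± 1.23 with Oct4, 35.0% ± 1.09 with Sox2, 3.82% ± 0.507 with Klf4 and 2.87% ± 0.0571 with OSK (n = 2 each). TAGLN shares 446 exon bases with PCSK7 on the opposite strand, which had 764 to 1492 normalised counts over all libraries and was highest in OSK.

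MYL9, the regulatory light chain of non-muscle and smooth muscle myosin, was the most abundant member per kilobase in GFP (3406 normalised counts per kilobase, with TAGLN next at 907). Its normalised counts were 7428, 10778 and 10622 in GFP, 44063 and 43759 with Oct4, 11648 and 11807 with Sox2, 3665 and 3502 with Klf4, and 2451 and 2836 with OSK. The Oct4 libraries exceeded every other library, and the Klf4 and OSK libraries were below all GFP libraries. The mean rose 4.57-fold with Oct4 (log2 change 2.21, SE 0.12; limma adjusted p = 1.08e-09), and it fell to 37.3% of GFP with Klf4 (-1.40, SE 0.12; limma adjusted p = 2.59e-07) and 27.5% with OSK (-1.85, SE 0.12; limma adjusted p = 7.47e-09). With Sox2 the log2 change of MYL9 was 0.31 (95% interval 0.05 to 0.57; limma adjusted p = 0.0549). That value was 0.13 without GFP replicate 1, and passed at 0.40 without GFP replicate 2 and 0.39 without GFP replicate 3 (limma adjusted p = 0.0177 and 0.0267). It also passed with the replicate number as a block (0.39, limma adjusted p = 0.0196).

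LMOD1, a leiomodin that nucleates actin filaments in smooth muscle, was highest in the Sox2 line. It had 168, 277 and 257 normalised counts in GFP, 786 and 932 with Oct4, 1278 and 1577 with Sox2, 267 and 224 with Klf4, and 220.1 and 145 with OSK. The Oct4 and Sox2 libraries lay above all others, and the Klf4 libraries lay within the GFP range. LMOD1 rose 6.10-fold with Sox2 (log2 change 2.63, SE 0.20; limma adjusted p = 2.64e-08) and 3.67-fold with Oct4 (1.90, SE 0.20; limma adjusted p = 1.40e-06). Its log2 change with Klf4 was 0.10 (95% interval -0.32 to 0.52; limma adjusted p = 0.749) and with OSK -0.35 (95% interval -0.77 to 0.07; limma adjusted p = 0.178). The OSK change passed without GFP replicate 1 (-0.57, limma adjusted p = 0.00735). It was -0.65 without OSK replicate 1 and -0.87 without both of these libraries, fits that leave 1 OSK library.

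CNN1, the smooth muscle calponin, was like ACTG2 close to undetected. Its normalised counts were 59.6, 7.08 and 1.94 in GFP, 2.32 and 10.3 with Oct4, 0 and 2.57 with Sox2, 3.47 and 4.57 with Klf4, and 10.8 and 2.20 with OSK. GFP replicate 1 alone was high, and OSK replicate 1 was above OSK replicate 2. These are the same 2 libraries in which more features were detected. No comparison of CNN1 with GFP passed in the fit of all libraries (lowest limma adjusted p = 0.0749, Sox2). The Sox2 change passed with edgeR, with DESeq2, with the replicate number as a block and without GFP replicate 3, and these settings all kept GFP replicate 1. The relatives CNN2 and CNN3, which also bind actin outside smooth muscle, had 892 and 4849 normalised counts per kilobase in GFP against 7.92 for CNN1.

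MYOZ2, a protein of the striated muscle Z-disc that binds calcineurin, was the member that fell in every line. It had 149, 258 and 215 normalised counts in GFP, 56.9 and 66.4 with Oct4, 15.7 and 19.7 with Sox2, 24.3 and 36.6 with Klf4, and 2.17 and 4.4 with OSK. All libraries of the factor lines lay below the GFP libraries, and the OSK libraries were lowest. The log2 change of MYOZ2 was -1.70 with Oct4, -3.45 with Sox2, -2.72 with Klf4 and -5.62 with OSK (SE 0.33 each; largest limma adjusted p = 7.43e-04). The OSK libraries held 2 and 4 reads, and their mean was 1.59% of GFP (0.582% to 3.45%, the exact 95% Poisson interval of the OSK reads, which covers counting error only). With a pseudocount of 5 the OSK change was -4.66.

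**Figure D3:**
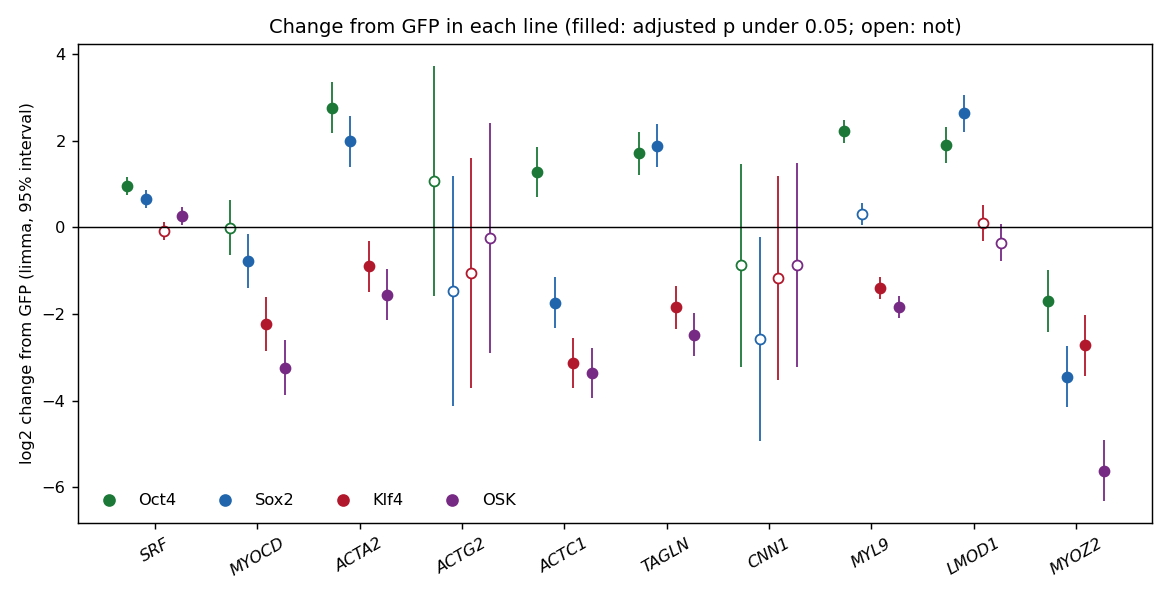
Log2 change from GFP of each member in each line (limma; bars are 95% intervals; filled points had an adjusted p under 0.05, open points did not). TAGLN and ACTA2 lay above 0 with Oct4 and Sox2 and below 0 with Klf4 and OSK, MYOZ2 lay below 0 in every line, and the intervals of ACTG2 and CNN1 were wide.

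The single-factor lines were then compared directly. Between Klf4 and Oct4, 8 members were lower with Klf4 and none higher, where 41.7% of all genes differed (21.8% lower and 20% higher), and TAGLN (log2 difference -3.56, SE 0.26), ACTA2 (-3.66, SE 0.30), MYL9 (-3.62, SE 0.13) and ACTC1 (-4.41, SE 0.30) differed most (largest limma adjusted p = 7.71e-08). Only ACTG2 and CNN1 did not pass there, and MYOZ2 (-1.02, limma adjusted p = 0.0343) was lost with no filter, with only the compared groups and without Oct4 replicate 1, Oct4 replicate 2 or Klf4 replicate 1 (limma adjusted p 0.0525 to 0.228). Between Klf4 and Sox2, 7 members were lower with Klf4 and none higher (20.1% and 20.7% of all genes, 40.8% in all). The log2 difference was -3.73 for TAGLN (SE 0.26; limma adjusted p = 8.79e-09) and -2.53 for LMOD1 (SE 0.22; limma adjusted p = 1.07e-07), and MYOZ2 did not pass (0.73, SE 0.36; limma adjusted p = 0.127).

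Between Sox2 and Oct4, 4 members were lower with Sox2 (SRF, ACTC1, MYL9 and MYOZ2) and LMOD1 was higher, against 18% and 15.4% of all genes (33.4% in all). ACTC1 (-3.02, SE 0.30; limma adjusted p = 9.64e-07) and MYL9 (-1.90, SE 0.13; limma adjusted p = 1.85e-08) differed most. TAGLN had a log2 difference of 0.18 (95% interval -0.37 to 0.73; limma adjusted p = 0.657) and ACTA2 of -0.77 (95% interval -1.42 to -0.12; limma adjusted p = 0.0638). The ACTA2 difference passed with edgeR, with only the compared groups and with the replicate number as a block (adjusted p 0.0146 to 0.0479). MYOCD (-0.78, limma adjusted p = 0.0799) passed with edgeR alone (adjusted p = 0.044 and 0.04 under its pair of scalings). The SRF difference (-0.29, limma adjusted p = 0.0436) was lost with edgeR, with TMM scaling, with no filter and without either library of Sox2 or Oct4 (adjusted p 0.054 to 0.245). That of LMOD1 (0.73, limma adjusted p = 0.0159) was lost with no filter and without Oct4 replicate 1 or Sox2 replicate 2 (limma adjusted p 0.0583 to 0.141).

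OSK, which carries Klf4 together with Oct4 and Sox2, was lower than Oct4 alone and than Sox2 alone for 8 members each, and higher for none (of all genes, 40.3% differed from Oct4, 21.9% lower and 18.4% higher, and 40.5% differed from Sox2, 20.5% lower and 20% higher). The log2 differences from Oct4 and from Sox2 were -4.18 and -4.36 for TAGLN (SE 0.26 each), -4.31 and -3.54 for ACTA2 (SE 0.30 each), and -4.06 and -2.15 for MYL9 (SE 0.13 each; largest limma adjusted p = 1.30e-07). SRF did not pass against Sox2 without Sox2 replicate 2 (-0.35, limma adjusted p = 0.0601). Against Klf4 alone, 3 members were lower in OSK (MYOCD, MYL9 and MYOZ2) and SRF was higher, where 11.9% and 9.56% of all genes were (21.5% in all). MYOZ2 differed by -2.90 (SE 0.36; limma adjusted p = 2.26e-05), a difference that passed under every alternative run. The other 3 were smaller: MYOCD -1.01 (limma adjusted p = 0.0362), MYL9 -0.44 (limma adjusted p = 0.0263) and SRF 0.33 (limma adjusted p = 0.0354). Each of these was lost when Klf4 replicate 1 or 2 was left out, and under other alternatives. Without GFP replicate 1 and OSK replicate 1, which leaves 1 OSK library, the differences were -0.76 for ACTA2, -0.63 for TAGLN and -0.75 for LMOD1. ACTA2 and TAGLN passed when the fit held Klf4 and OSK alone (limma adjusted p = 0.0124 and 0.0031). ACTC1 did not differ beyond its spread (-0.23, 95% interval -0.87 to 0.41; limma adjusted p = 0.664).

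The order of levels thus varied among members. TAGLN had Sox2 and Oct4 on top, without a difference that passed between them, then GFP, then Klf4 and OSK, whose difference did not pass either (-0.63, 95% interval -1.18 to -0.08; limma adjusted p = 0.104). ACTC1 ran Oct4, GFP, Sox2, Klf4, OSK, and of neighbours in that order Klf4 and OSK did not pass. MYL9 ran Oct4, Sox2, GFP, Klf4, OSK, and of neighbours Sox2 and GFP did not pass. MYOZ2 ran GFP, Oct4, Klf4, Sox2, OSK, and of neighbours Klf4 and Sox2 did not pass.

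Adding the log2 changes of the Oct4, Sox2 and Klf4 lines gives a reference for OSK. OSK was below that sum for 5 members and above it for 1, where 35.9% of all genes differed from it (20.3% below and 15.6% above). For ACTA2 the single changes added up to 3.84 and OSK was at -1.56, a difference of -5.40 (SE 0.56; limma adjusted p = 1.68e-06). LMOD1 had a sum of 4.63 and an OSK change of -0.35 (difference -4.98, SE 0.40; limma adjusted p = 1.08e-07). TAGLN had 1.74 and -2.48 (difference -4.22, SE 0.47; limma adjusted p = 4.09e-06) and MYL9 had 1.12 and -1.85 (difference -2.96, SE 0.24; limma adjusted p = 1.63e-07). SRF had 1.53 and 0.25 (difference -1.28, SE 0.19; limma adjusted p = 7.62e-05). These 5 are genes that rose with Oct4 and whose change in OSK lay nearer to that with Klf4 alone than to the sum.

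MYOCD and ACTC1 did not differ from the sum beyond their spread. ACTC1 also rose with Oct4, and its change in OSK was about as near to that with Klf4 alone (-3.13, difference -0.23) as to the sum. The MYOCD changes added up to -3.02 against -3.24 in OSK (difference -0.22, 95% interval -1.48 to 1.04; limma adjusted p = 0.806). Those of ACTC1 added up to -3.60 against -3.36 in OSK (difference 0.24, 95% interval -0.93 to 1.41; limma adjusted p = 0.773). MYOZ2 was above its sum of -7.87 (difference 2.25, SE 0.66; limma adjusted p = 0.0146), with 2 and 4 reads in the OSK libraries, and the call was lost with edgeR, with DESeq2 and without GFP replicate 2 or 3 (adjusted p 0.0514 to 0.0856). CNN1 differed from its sum with DESeq2 alone (adjusted p = 0.0284).

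**Figure D4:**
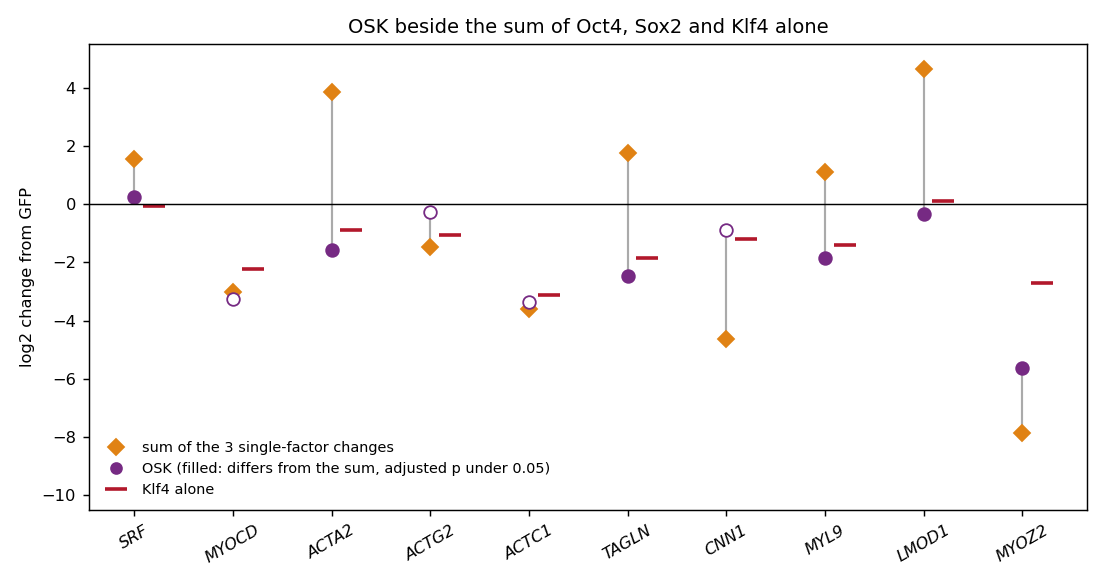
Log2 change from GFP in OSK (circles, filled where it differed from the sum), the sum of the changes with Oct4, Sox2 and Klf4 alone (diamonds) and the change with Klf4 alone (dashes) for each member. For ACTA2, TAGLN, MYL9 and LMOD1 the sum lay above 0 and OSK below it, and for MYOCD and ACTC1 the sum and OSK nearly coincided.

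Other genes of the pathway were examined from lists written from general knowledge, but with earlier results of these data known. Of 20 further smooth muscle contractile genes, 16 were tested. With Oct4 10 rose and 1 fell (median log2 change 0.86), with Sox2 9 and 2 (0.49), with Klf4 5 and 7 (-0.21), and with OSK 1 and 8 (-0.52). Of all genes tested, 20.1% rose and 17.2% fell with Oct4, 21.7% and 19.9% with Sox2, 17.6% and 16% with Klf4, and 19.7% and 20% with OSK. FHL2, a LIM-domain partner of SRF, rose by 2.25 with Oct4 (SE 0.10), and VCL, the adhesion protein vinculin, rose by 1.78 with Sox2 (SE 0.11). TPM1, a tropomyosin, fell with Klf4 (-1.35, SE 0.12) and OSK (-1.66, SE 0.12), and CALD1, the actin-binding caldesmon, fell with OSK (-1.72, SE 0.11). MYLK, the kinase that phosphorylates MYL9, fell by 2.03 with Sox2 (SE 0.08). PDLIM7 and SYNM rose with Klf4 (1.19 and 1.18), but these rises were not confined to the lines with Klf4. SYNM also rose with OSK (1.69) and most with Oct4 (1.98). PDLIM7 also rose with Sox2, to a mean of 7061 normalised counts against 7008 with Klf4. The largest limma adjusted p among these changes was 5.71e-06.

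Cytoskeletal targets of SRF, 23 genes that were all tested, were counted next. With Oct4 17 rose and 2 fell (median 0.68), with Sox2 19 and 2 (0.65), with Klf4 4 and 13 (-0.33), and with OSK 2 and 16 (-0.58), against the all-gene shares of 20.1% and 17.2%, 21.7% and 19.9%, 17.6% and 16%, and 19.7% and 20% for those lines. CCN1, a matricellular protein, rose by 1.40 with Oct4 (SE 0.10), and SVIL, the membrane-linked actin binder supervillin, rose by 3.46 with Sox2 (SE 0.13). ANKRD1 fell with Klf4 (-2.09) and OSK (-3.43; SE 0.18 each), and CCN2, a matricellular protein, fell with the same lines (-1.66 and -1.94; SE 0.15 each). ITGA5, the fibronectin receptor subunit, went the other way and rose by 2.62 with Klf4 and 2.22 with OSK (SE 0.12 each; largest limma adjusted p of the changes up to here 3.13e-07). It also rose by 1.76 with Sox2 (SE 0.12; limma adjusted p = 6.69e-09). SVIL likewise rose with Klf4 (1.43) and OSK (0.76; SE 0.13 each, largest limma adjusted p = 1.97e-04). ANKRD1 also fell with Oct4 (-0.50) and Sox2 (-0.51; SE 0.18 each, largest limma adjusted p = 0.0383).

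Of 9 immediate early genes that SRF serves with its ETS partners, none rose and 5 fell with Oct4, 1 and 6 did with Sox2, 2 and 4 with Klf4, and 3 and 3 with OSK. The shares of all genes that rose and fell were 20.1% and 17.2% with Oct4, 21.7% and 19.9% with Sox2, 17.6% and 16% with Klf4, and 19.7% and 20% with OSK. The list medians were -0.74, -0.35, -1.11 and -0.72 in that order. Without GFP replicate 1 they were -0.81, -0.50, -0.17 and -0.44, so the Klf4 median depended on that library. EGR1 fell with Oct4 (-2.51), Sox2 (-1.49), Klf4 (-4.14) and OSK (-3.62; SE 0.22 each, largest limma adjusted p = 3.99e-05), whereas JUNB rose by 1.91 with Klf4 (SE 0.13; limma adjusted p = 1.39e-08). EGR2 rose by 3.35 with Sox2 (SE 0.41; limma adjusted p = 5.52e-06) and fell with Klf4 (-1.79; limma adjusted p = 0.00274). NR4A1 rose by 1.48 with OSK (SE 0.14; limma adjusted p = 3.65e-07). EGR1 and FOS (-2.55, SE 0.16; limma adjusted p = 3.88e-09) thus fell in the Oct4 line, in which SRF, ACTA2 and TAGLN rose.

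Striated muscle genes, which share a class with ACTC1 and MYOZ2, were tested for 9 of 20. With Oct4 none rose and 3 fell, with Sox2 none and 4, with Klf4 2 and 5, and with OSK none and 5 (medians -0.08, -0.69, -1.39 and -1.95). The shares of all genes that rose and fell were 20.1% and 17.2%, 21.7% and 19.9%, 17.6% and 16%, and 19.7% and 20%. NPPB, the gene of brain natriuretic peptide, had 2275 ± 974 normalised counts in GFP (SD, n = 3) and fell with Oct4 (-1.24), Sox2 (-3.12), Klf4 (-1.71) and OSK (-3.67; SE 0.29 each, largest limma adjusted p = 0.00341). TNNC1, a troponin, fell by 3.07 with OSK (SE 0.35; limma adjusted p = 3.11e-06). TNNT1, another troponin, rose by 2.63 with Klf4 (SE 0.50; limma adjusted p = 6.90e-04), and MYOZ3, a relative of MYOZ2, rose by 1.76 with Klf4 (SE 0.62; limma adjusted p = 0.0387). Without GFP replicate 1 the median of the 8 striated muscle genes then tested was -0.40 with Oct4 and -1.16 with Sox2, and 1 gene rose with Oct4. The fallen counts of the cytoskeletal list were then 18 with Klf4 and 17 with OSK, and the shares of all genes were not counted for that fit.

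**Figure D5:**
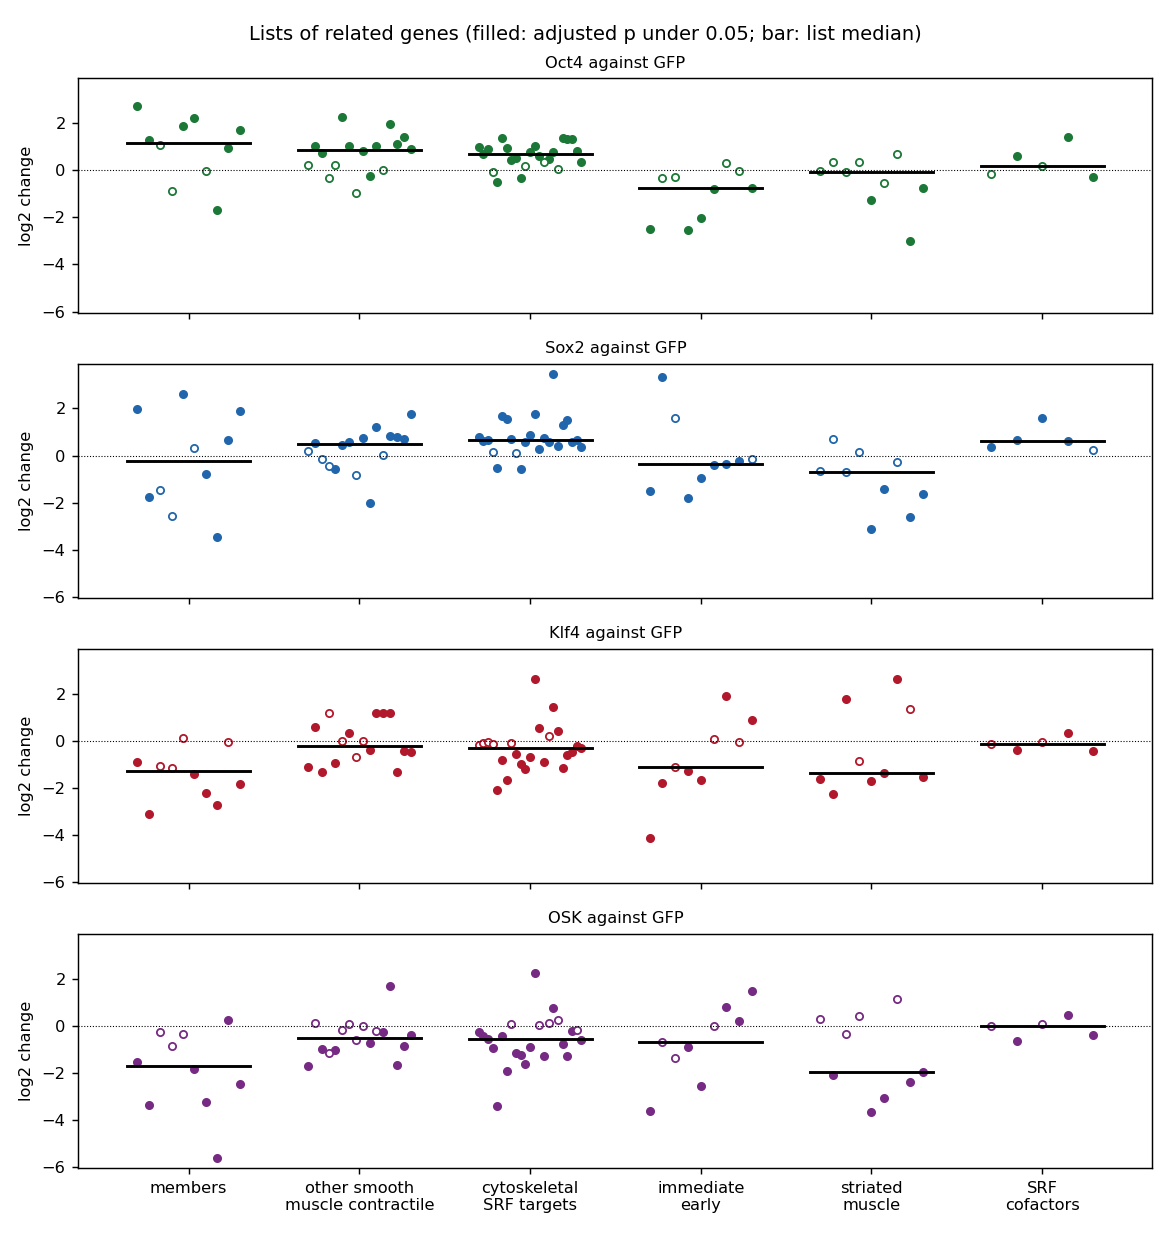
Log2 change from GFP of every tested gene of each list shown (points; filled where the adjusted p was under 0.05) with the list median (bars), 1 panel per line. The medians of the members and of the contractile and cytoskeletal lists were above 0 with Oct4 and below 0 with Klf4 and OSK.

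The genes whose levels over the 11 libraries were most like a member's were found by Pearson's r of log2(value + 1), as a description of libraries that fall into 5 groups. ACTA2 was most like ACTN4 (r = 0.993) and TPM2 (0.985), which encode an alpha-actinin and a tropomyosin. TAGLN was most like SPARC (0.996) and FLNA (0.995), MYL9 like FOXP1 (0.992) and SYDE2 (0.990), LMOD1 like PRKAB2 (0.987) and LIMS1 (0.979), and SRF like YWHAE (0.982) and RUNX1 (0.980). ACTC1 was most like PDE5A (0.994) and ABHD4 (0.981), and MYOCD like PRELID3A (0.987) and CSMD1 (0.986).

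Markers of the labelled cell type and of other types were measured beside the members. Each sum takes all markers of its list, tested or not. Of 10 markers of retinal pigment epithelium 8 were tested, and their summed level was 12725 to 16417 normalised counts in GFP, 4243 to 4820 with Oct4, 2416 to 2481 with Sox2, 8091 to 9762 with Klf4 and 5541 to 5910 with OSK. RPE65, a defining marker, had at most 4.63 normalised counts in any library, while TYR and TYRP1 were present. Of 5 smooth muscle markers 3 were tested. The sum of all 5 was 742 to 795 in GFP, 655 to 809 with Oct4, 732 to 735 with Sox2, 1603 to 1619 with Klf4 and 595 to 624 with OSK. It was mostly SMTN, and MYH11, the defining myosin, had 111 normalised counts in GFP replicate 1 and at most 25.45 in the other 10 libraries. Of 6 fibroblast markers 4 were tested, with a sum of 3012 to 4899 in GFP, 2591 to 3717 with Oct4, 7069 to 8429 with Sox2, 1012 to 1401 with Klf4 and 618 to 867 with OSK. Of 6 pericyte markers 4 were tested, with a sum of 11887 to 13753 in GFP and 4907 to 10167 in the factor lines. Sums of 4 endothelial markers (3 tested) were 1091 to 1343 in GFP and 535 to 892 in the factor lines, and those of 6 striated muscle cell markers (1 tested) were at most 112 anywhere. No marker was at 3 reads or less in all libraries, but KCNMB1 had 8 and 6 reads in GFP replicate 1 and OSK replicate 1 and at most 1 elsewhere. The fibroblast sum was mostly COL1A1, which had 2884 to 4845 normalised counts in GFP and was the only one of the 4 that fell with OSK (-2.50, SE 0.21; limma adjusted p = 8.50e-08). COL1A2 had 15.55 to 27.8 normalised counts in GFP and 16.3 and 18.7 in OSK, and THY1 had 32.4 to 71.5 in GFP and 34.7 and 44.0 in OSK. The part of these markers in the members' changes was not tested.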

How the data were processed

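PolyA RNA of 11 ARPE-19 libraries was analysed, grouped by sample title, with table columns matched to samples by library name. The deposited file holds 1 signal per gene and library, in normalised counts. Its numbers are read counts over a library factor, as judged from the values: in each library at least 99.996% of nonzero entries came out as whole reads (tolerance 0.0061). STAR 2.7.1a and featureCounts 1.6.2 are named with human and mouse builds in the submitters' processing notes. Annotation and use of strand are not given in the sources used here.

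The main test was limma 3.58.1 (R 4.3.3; lmFit, eBayes with trend) on log2(value + 1), which understates changes of low genes, with 1 mean per group over 11 libraries, 6 residual and 9.21 prior degrees of freedom. Groups of 2 thus borrow the spread of all groups. edgeR 4.0.16 and DESeq2 1.42.0 were run on recovered reads as alternatives. The procedure was also run on simulated counts with the same dispersion for every gene and no library that stood apart. That run therefore cannot show how GFP replicate 1 and OSK replicate 1 affect the calls. Exon lengths and gene overlaps came from GENCODE release 29, and promoters from RefSeq.

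The members and lists were chosen with earlier results of these data known. Genes named beyond the members were the factor genes, the SRF partners, the 2 largest called rises and falls of each list per comparison with GFP, and the 2 most like each member. Of these, 1 list and 1 gene are not reported here. SMTN, MYH11, COL1A1, COL1A2, THY1, RPE65, TYR, TYRP1, CNN2, CNN3, TAGLN2, ACTB, ACTG1, FAS, ACTA2-AS1 and PCSK7 were named as markers, relatives or overlapping genes.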

Additional observations from a re-analysis of the deposited data

How the results depend on the processing

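Of 172 counts of changed members under alternatives, 162 were within 1.5 times the reported value. No member's change turned direction where either fit called it (0 of 1670 values). Of those 1670 values, 64 lost the call of the main fit and 27 gained a call. The count for OSK against Klf4 was 4, and was 2 with edgeR on TMM factors, 2 with DESeq2, 1 with no filter, 7 without GFP library 1 and OSK library 1 (an alternative chosen after seeing the data), and 1 to 3 when leaving out 1 replicate. The count for Sox2 against Oct4 was 5, and was 3 with no filter, 3 to 4 when leaving out 1 replicate, and 7 when the fit held those groups alone. The fit with no filter tested 48093 genes. The cause of these differences was not tested. A line with a replicate left out has 1 library, which is assumed to vary like the other groups. Against GFP, the Sox2 count ranged over all alternatives from 6 to 8, that of Klf4 from 5 to 7 and that of OSK from 6 to 7, and that of Oct4 was 7 in each. The share of all genes called was counted for the main fit only, so counts under alternatives have no share beside them.

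The labels give groups the same replicate numbers, but nothing says that a number marks a shared batch. Differences between replicates 1 and 2 correlated from -0.07 to 0.04 between groups, except 0.41 between GFP and OSK. With the number as a block, in which GFP replicate 3 has a level of its own and so drops out, the counts were 7 for Oct4, 8 for Sox2, 6 for Klf4 and 7 for OSK against GFP, 8, 8 and 4 for OSK against Oct4, Sox2 and Klf4, 8 and 7 for Klf4 against Oct4 and Sox2, 6 for Sox2 against Oct4, and 6 for OSK against the sum. Depth limited ACTG2 and CNN1, with at most 2 and 4 reads in the Klf4 libraries.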
